A study of Mus musculus with 6 samples.

Results

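Kit, Flt3, Cd34, Cd93 and Cd27, which encode surface receptors of blood progenitors, were followed from cultured progenitors to thymocytes. They were chosen by name, and all 5 were among the 19938 mouse genes measured, each by 1 probe set. The study measured total RNA on 6 Affymetrix arrays, 2 for each of 3 populations. The HSC samples were bone marrow cells transduced with the NUP98-HOXB4 fusion and expanded in vitro with IL6 and SCF. The ProT samples carried the same fusion and had been grown with IL7 and with the Notch1 ligand DLL4. The DP samples were double positive thymocytes that formed after such ProT cells had been injected into Rag2-/- mice, hosts that make no mature T or B cells of their own but keep thymic stroma and other blood cells. By these descriptions all 3 populations derive from cells given the fusion, whose protein is known to sustain the growth of progenitors. Whether each population still expressed the fusion was not examined, and no population without it is analysed here. SCF, the ligand of Kit, was in the HSC culture, and the labels name IL7 and DLL4 for ProT without saying whether SCF was present there too.

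Kit and Flt3 are receptor tyrosine kinases of one family. Kit binds SCF and supports stem cells, early T cell progenitors and mast cells, and Flt3 binds FLT3 ligand and marks multipotent and lymphoid progenitors and dendritic cell precursors. Cd34 encodes a sialomucin of progenitors and endothelium, and Cd93 a C-type lectin-like receptor found on early progenitors, myeloid cells and endothelium. Cd27 encodes a TNF receptor family member that binds CD70 and is found on early lymphoid progenitors, T cells and NK cells. In the normal thymus the earliest T cell progenitors carry Kit, a few of them also carry Flt3, and both are lost before the double positive stage.

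The sequence upstream of the transcription start was available for 4 of the 5 genes, in RefSeq promoters of build GRCm38.p6. The 250 bases before the start are shown for Kit, Flt3 and Cd34, whose signals fell together in DP, and for Cd27, whose signal rose. The sequences run 5′ to 3′ on the strand of the gene. Capitals mark matches on either strand to GATAA (GATA factors), CAGNTG (the E-box of bHLH factors such as TAL1), GAGGAA (PU.1-type ETS factors), TGTGGT (RUNX), AACNG (MYB) and TGGGAA (RBPJ, the DNA-binding partner of Notch).
Kit (chr5:75574737-75574986, + strand): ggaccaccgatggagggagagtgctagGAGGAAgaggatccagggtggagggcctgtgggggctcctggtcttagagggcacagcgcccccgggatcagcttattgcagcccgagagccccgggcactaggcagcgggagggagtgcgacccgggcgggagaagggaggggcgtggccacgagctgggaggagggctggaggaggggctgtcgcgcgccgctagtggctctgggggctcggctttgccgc
Flt3 (chr5:147400490-147400739, - strand): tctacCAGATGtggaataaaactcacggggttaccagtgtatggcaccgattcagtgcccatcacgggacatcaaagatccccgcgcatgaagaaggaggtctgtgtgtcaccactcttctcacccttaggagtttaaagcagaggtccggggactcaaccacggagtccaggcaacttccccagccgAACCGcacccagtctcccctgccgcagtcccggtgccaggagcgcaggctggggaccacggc
Cd34 (chr1:194938571-194938820, + strand): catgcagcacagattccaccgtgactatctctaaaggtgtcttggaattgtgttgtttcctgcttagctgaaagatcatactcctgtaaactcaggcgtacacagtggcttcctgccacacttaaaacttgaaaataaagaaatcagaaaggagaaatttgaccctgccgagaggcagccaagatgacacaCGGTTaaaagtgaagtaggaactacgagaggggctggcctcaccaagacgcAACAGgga
Cd27 (chr6:125237028-125237277, - strand): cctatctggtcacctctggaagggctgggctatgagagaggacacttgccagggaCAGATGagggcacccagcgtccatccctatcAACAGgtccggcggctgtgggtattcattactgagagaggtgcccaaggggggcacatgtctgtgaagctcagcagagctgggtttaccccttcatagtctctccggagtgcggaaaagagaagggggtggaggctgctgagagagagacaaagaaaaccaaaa
The Kit window is the first of 2 annotated starts. It held 1 PU.1-type match, 223 to 218 bases before the start, a motif present in 23.1% of the 27018 promoters of the same length. The Flt3 window held 1 E-box (44.5% of promoters) and 1 MYB match (74.2%), and the Cd27 window likewise 1 of each. The Cd34 window held 2 MYB matches. None of the 4 windows held GATAA (23.0% of promoters), TGTGGT (14.2%) or TGGGAA (21.5%), and no matches overlapped. The Kit window was 70.8% G and C with 17 CpG dinucleotides, that of Flt3 59.2% with 13, that of Cd27 56.0% with 5 and that of Cd34 46.4% with 6, beside medians of 52.0% and 6 over all promoters.

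Signals are log2 values, so a difference of 1 is a 2-fold change, and levels of different genes are not compared. The 6 arrays had medians from 6.73 to 6.91. In HSC 204 genes were at least 2-fold apart between the replicates, in ProT 144 and in DP 0. With 2 arrays a population, precision is limited. Whether replicates were separate cultures or animals is not in the labels, and p-values therefore reflect only how far these samples lay apart, possibly for technical reasons. Marker lists were set against the labels. Of 11 early T markers, all were above 7.17, the median of all gene values, in ProT and in DP, and of 11 double positive thymocyte markers all were above it in DP and 4 in ProT. In HSC, 10 of 11 stem and progenitor markers were above it, all but Procr, and so were all 13 granulocyte and monocyte markers, so the samples labelled HSC also held RNA of myeloid marker genes. All comparisons come from 1 limma fit over the 6 arrays with Benjamini-Hochberg adjustment over 19938 genes, and a gene is said to have risen or fallen only where that adjusted p was below 0.05. The test called 14.7% of all genes for ProT against HSC, 32.6% for DP against ProT and 34.9% for DP against HSC. Of these calls 53.2%, 44.6% and 46.0% were rises, and after centring each array on its median 43.6%, 61.2% and 51.8%.

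Of the 5 receptor genes, Kit, Flt3, Cd34 and Cd93 fell in DP against both other populations, and Cd27 rose. Kit was highest in ProT, Flt3 and Cd34 did not pass the test between ProT and HSC, and Cd93 fell at each step. In DP, Kit, Flt3, Cd34 and Cd93 were 7.74-fold to 18.6-fold below ProT, and Cd27 was 1.77-fold above it. In these bulk samples, fewer cells that carry a receptor and less RNA per cell cannot be told apart.

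**Figure D1:**
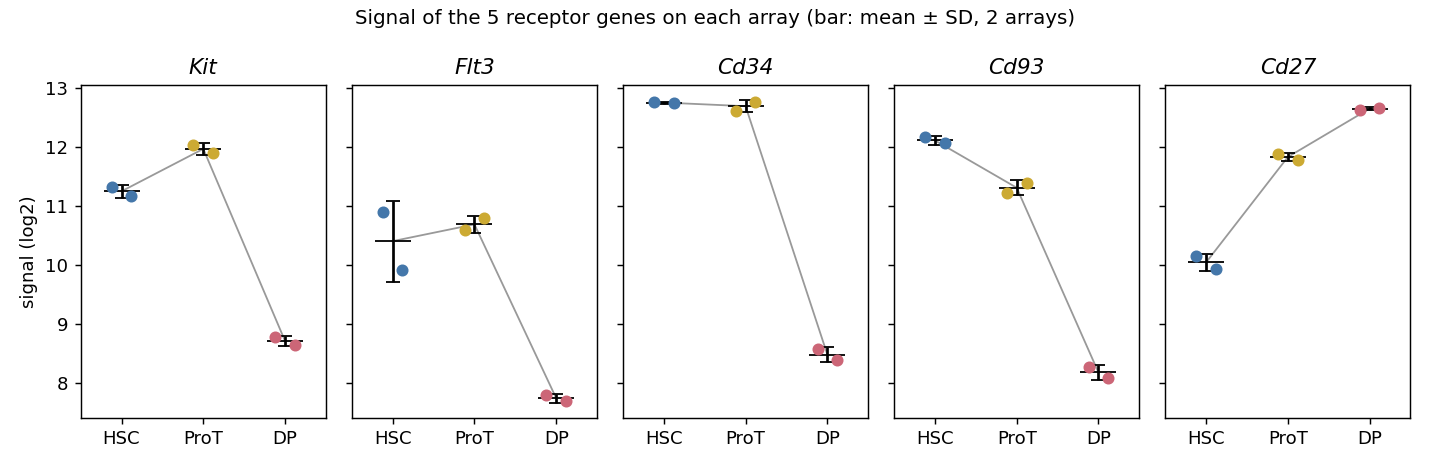
Signal (log2, y axis) of the 5 genes on each array (points) in HSC, ProT and DP, with the mean and SD of 2 arrays (black bars) joined by a grey line. Kit, Flt3, Cd34 and Cd93 drop to between 7.68 and 8.77 in DP, while Cd27 climbs to 12.63 and 12.67.

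Kit, the SCF receptor, had signals of 12.04 and 11.90 in ProT and of 11.33 and 11.17 in HSC. Both ProT arrays lay above both HSC arrays. The difference was a log2 change of 0.72 ± 0.10 (SE; adjusted p = 0.00624, limma), a 1.65-fold rise with a 95% confidence interval of 1.39 to 1.95. In DP Kit measured 8.77 and 8.64, so DP lay 9.60-fold below ProT (log2 change -3.26, interval -3.51 to -3.02, adjusted p = 1.40e-05 with limma). It was also below HSC, by 5.82-fold (log2 change -2.54 ± 0.10, adjusted p = 2.35e-05 with limma). The order was thus ProT, HSC, DP, and each neighbouring pair passed the test, which pools the spread of all 3 populations.

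Mast cells are rich in Kit. Of 15 mast cell markers, 7 rose and 1 (Hdc, the histamine-forming enzyme) fell in ProT against HSC, with a median log2 change of 0.47. Of all genes, 7.85% rose and 6.90% fell there. In DP against ProT, where 18.1% of all genes fell, 10 of the 15 markers did, with a median of -1.08. Their summed linear signal was 30095 to 30628 in ProT against 15358 to 15514 in HSC, and 9496 to 9694 in DP. Srgn, the serglycin gene of many blood cells, made up 71.0% to 77.4% of this sum in HSC and 90.1% to 90.5% in DP. Without it the sums were 19410 to 19673 in ProT, 3501 to 4450 in HSC and 903 to 962 in DP. The mast cell genes Cma1, Tpsab1, Mrgprb1 and Mrgprb2 were below 7.17 in all 3 populations. Other genes of the list were far higher in ProT. The protease gene Mcpt1 had means of 4.92 in HSC, 12.52 in ProT and 4.78 in DP. In the same order Mcpt2 had 4.28, 10.68 and 4.46, Mcpt4 4.97, 11.30 and 5.02, and Cpa3 10.86, 12.92 and 8.46. Fcer1a, an IgE receptor gene, had 4.84, 9.33 and 4.70, and Hdc, which went the other way, 9.94, 6.90 and 6.74. The part of mast cell RNA in the Kit signal was not tested.

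Flt3, the receptor for FLT3 ligand, had 10.58 and 10.79 in ProT, against 10.89 and 9.91 in HSC. The HSC arrays lay on both sides of the ProT arrays, and their SD of 0.69 was the widest of any population among the 5 genes. The log2 change was 0.28 ± 0.30 (interval -0.46 to 1.03, adjusted p = 0.668 with limma), so these arrays leave room for a 2.04-fold rise or a 1.37-fold fall. Which HSC array is used decides the value. Without HSC replicate 1 the log2 change was 0.77 (adjusted p = 0.0113, limma), and without HSC replicate 2 it was -0.20 (adjusted p = 0.435). In DP both arrays were far lower, at 7.79 and 7.68. That is a 7.74-fold fall against ProT (log2 change -2.95 ± 0.30, adjusted p = 0.000966) and a 6.35-fold fall against HSC (log2 change -2.67 ± 0.30, adjusted p = 0.00111, both limma). The lower DP array lay 0.51 above 7.17, and values near that level were not shown to lie above background.

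Dendritic cells and their precursors carry Flt3. Of 11 dendritic cell markers 6 rose and 0 fell in ProT against HSC, where 7.85% and 6.90% of all genes did. In DP against ProT 4 rose and 2 fell, where 14.5% and 18.1% of all genes did. The summed linear signal was 11128 to 12189 in ProT against 798 to 1016 in HSC, and 16766 to 17149 in DP. Ccr9, which thymocytes also express, made up 66.9% to 67.2% of the DP sum. Without it the sums were 7509 to 9346 in ProT, 744 to 958 in HSC and 5545 to 5633 in DP, so DP was then below ProT. The marker genes Zbtb46, Xcr1, Clec9a, Siglech and Cd209a were below 7.17 in every population. Other genes of the list were higher in ProT than in HSC. Itgax had means of 6.08 in HSC, 9.30 in ProT and 6.94 in DP. In the same order H2-Aa had 5.60, 11.17 and 10.64, and H2-Ab1 7.59, 11.31 and 10.74. Cd74 read 6.64 and 7.35 on the HSC arrays, with means of 11.24 in ProT and 10.66 in DP. The part of dendritic cell RNA in the Flt3 signal was not tested. The HSC array with more Flt3 also had the higher stem and progenitor sum, 18309 against 15773 on the other, and the lower granulocyte and monocyte sum, 59427 against 68826. Whether these differences between the HSC arrays bear on Flt3 was not tested.

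Cd34, the sialomucin gene used to mark progenitors, had the smallest measured change of the 5 between ProT and HSC and the largest between DP and ProT. It had 12.62 and 12.77 in ProT, against 12.77 and 12.74 in HSC, and the groups overlapped. The log2 change was -0.06 ± 0.10 (adjusted p = 0.79, limma), and the interval from -0.30 to 0.18 bounds a change at a 1.23-fold fall or a 1.13-fold rise. The sign was positive without ProT replicate 1. In DP it dropped to 8.57 and 8.38, a log2 change of -4.22 against ProT (interval -4.46 to -3.98, adjusted p = 9.01e-06) and of -4.28 against HSC (adjusted p = 4.33e-06, both limma). The fall against ProT was 18.6-fold, and 43 of 19938 genes, Cd34 included, had a log2 change that low. Of the difference between DP and HSC, 98.6% arose between ProT and DP.

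Cd93, the lectin-like receptor, fell at both steps. ProT arrays read 11.22 and 11.40, against 12.16 and 12.06 on HSC arrays, a log2 change of -0.80 ± 0.10 (1.75-fold, adjusted p = 0.00478, limma). DP arrays read 8.26 and 8.09, which is 8.80-fold below ProT (log2 change -3.14 ± 0.10, adjusted p = 1.77e-05) and 15.3-fold below HSC (log2 change -3.94 ± 0.10, adjusted p = 6.25e-06, both limma). No arrays of different populations overlapped, and 20.4% of the way from HSC to DP was covered by ProT.

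Cd34 and Cd93 are also genes of endothelium, and Cd93 of myeloid cells. Of 12 endothelial markers, 10 were below 7.17 in all 3 populations, among them Cdh5, Kdr, Tie1 and Vwf. The endothelial sums were 2818 to 2862 in DP, 2678 to 2997 in ProT and 2961 to 4445 in HSC. Without Eng, the endoglin gene, they were 2459 to 2514 in DP, 2344 to 2483 in ProT and 1680 to 2017 in HSC, so HSC was then lowest. With Pecam1 left out instead, HSC stayed highest, at 1897 to 3064, with 1034 to 1244 in ProT and 1095 to 1140 in DP. All 13 granulocyte and monocyte markers fell in ProT against HSC, where 6.90% of all genes did, with a median log2 change of -4.42. At that step Cd93 fell by 0.80 and Cd34 did not pass. In DP against ProT, where both fell most, 5 of the 13 rose and 2 fell, beside 14.5% and 18.1% of all genes. Of 11 macrophage markers 1 rose and 2 fell in ProT against HSC, where 7.85% and 6.90% of all genes did. In DP against ProT 6 macrophage markers rose and 2 fell. Macrophage sums were 2120 to 2266 in DP, 4022 to 4117 in ProT and 4053 to 5200 in HSC. Without Adgre1, the F4/80 gene, they were 1981 to 2129 in DP, 1710 to 2040 in ProT and 3486 to 4038 in HSC, so that DP and ProT overlapped. With C1qb left out instead, DP (1457 to 1512) stayed below ProT (3955 to 4020). With Csf1r left out, HSC (2417 to 3111) was below ProT (3944 to 4002). The part of myeloid RNA in the Cd93 signal was not tested.

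Cd27, the CD70 receptor, rose at both steps. Its signals were 11.88 and 11.78 in ProT, against 10.14 and 9.94 in HSC, a 3.46-fold rise (log2 change 1.79 ± 0.10, adjusted p = 0.000164, limma). In DP they were 12.63 and 12.67, a further 1.77-fold over ProT (log2 change 0.82 ± 0.10, adjusted p = 0.00166) and 6.11-fold over HSC (log2 change 2.61 ± 0.10, adjusted p = 1.97e-05, both limma). The order was DP, ProT, HSC with no overlap, and 68.5% of the difference between DP and HSC was present in ProT.

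T cells and NK cells both carry CD27. All 11 early T markers rose in ProT against HSC, where 7.85% of all genes did. In DP against ProT, where 14.5% of all genes rose and 18.1% fell, 6 of these markers rose and 3 fell. Their sums were 50132 to 50913 in DP, 45574 to 45985 in ProT and 2919 to 3162 in HSC. NK and innate lymphoid markers peaked in ProT, with 8 of 12 higher than in HSC and 8 of 12 lower in DP than in ProT. In DP against HSC 8 rose and 1 fell, where 16.0% and 18.8% of all genes did. The NK sums were 3588 to 3741 in DP, 32439 to 33283 in ProT and 7134 to 7399 in HSC. Nkg7, a cytotoxic granule gene, made up 92.0% to 92.6% of the HSC sum. Without it the sums were 2342 to 2352 in DP, 24759 to 25788 in ProT and 549 to 567 in HSC, so DP was then above HSC. The part of T cell or NK cell RNA in the Cd27 signal was not tested.

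**Figure D2:**
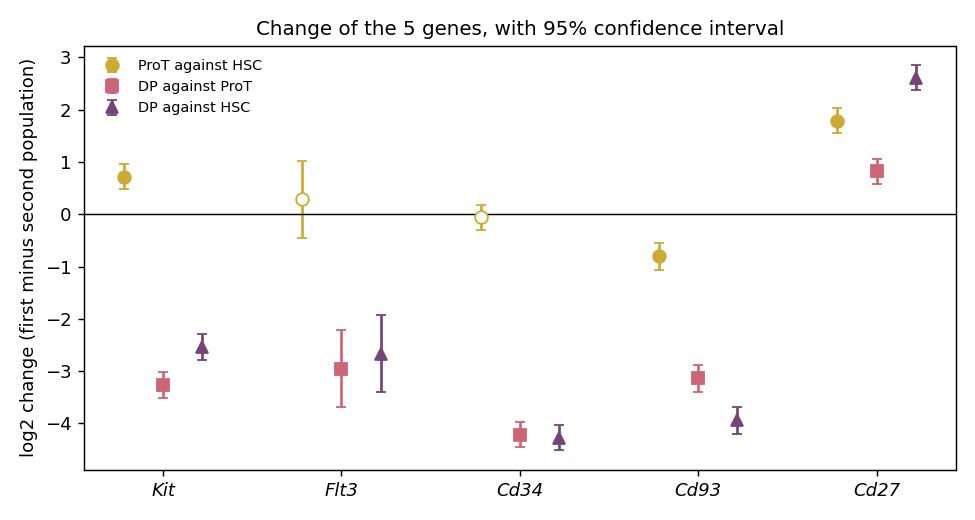
Log2 change (y axis, first minus second population) of each gene in the 3 comparisons, with 95% confidence intervals from limma. Filled symbols passed the test and open symbols did not. For ProT against HSC the values run from -0.80 for Cd93 to 1.79 for Cd27, and for DP against ProT from -4.22 for Cd34 to 0.82 for Cd27.

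Counted together, 2 of the 5 genes rose and 1 fell between ProT and HSC, where 7.85% and 6.90% of all genes did, and the median of the 5 was 0.28 beside -0.01 over all genes. Between DP and ProT 4 fell and 1 rose, where 18.1% and 14.5% of all genes did, with a median of -3.14 beside 0.02. Between DP and HSC 4 fell and 1 rose as well, where 18.8% and 16.0% did, with a median of -2.67 beside 0.02. The comparisons share arrays and are not independent of each other. Arrays did not overlap for 3 of the 5 genes between ProT and HSC (52.1% of all genes), for all 5 between DP and ProT (69.0%) and for all 5 between DP and HSC (67.9%). A log2 change as low as that of Kit, Cd93 or Flt3 in DP against ProT was reached by 141, 158 and 186 genes, themselves included, which is 0.707%, 0.792% and 0.933% of those measured. A rise as large as that of Cd27 was reached by 350 genes in ProT against HSC and by 1214 in DP against ProT. In ProT against HSC 1035 genes had a log2 change at least as high as that of Kit, and 875 had one as low as that of Cd93.

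**Figure D3:**
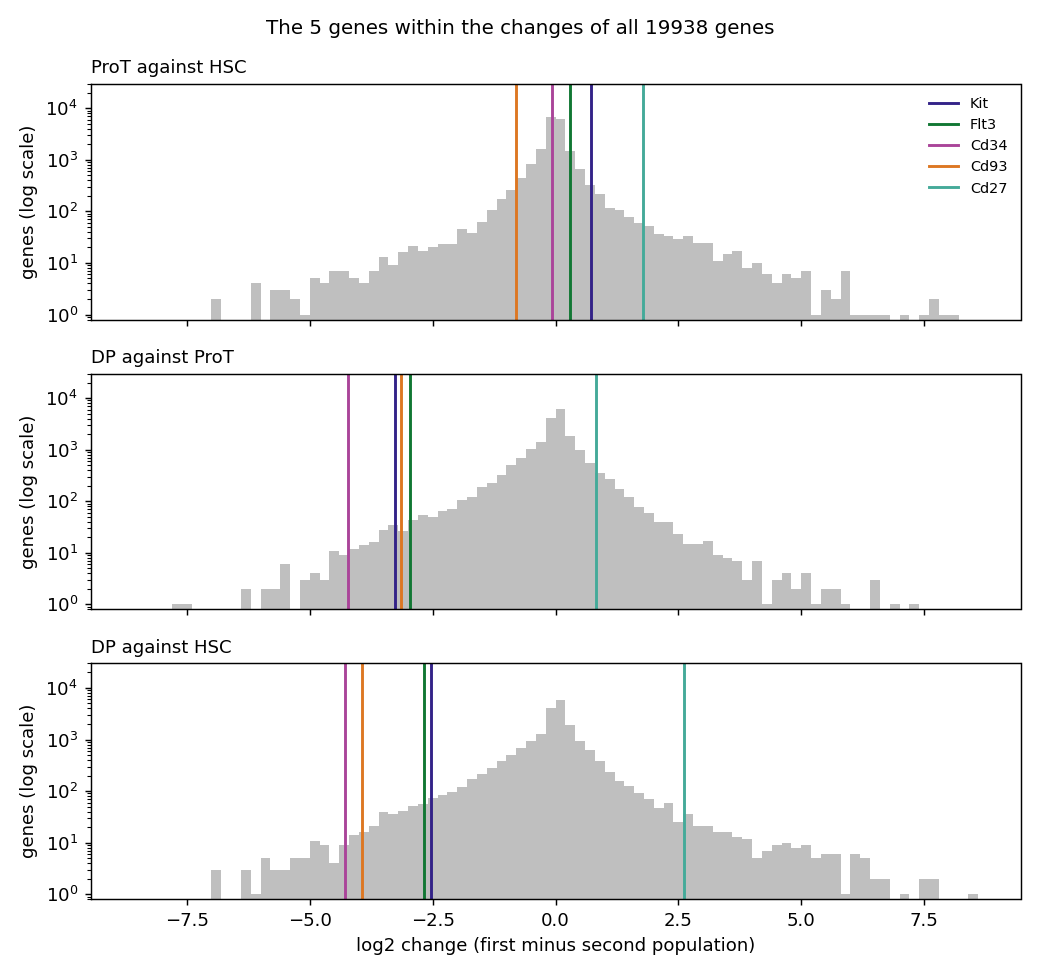
Histograms of the log2 change of all 19938 genes (x axis; number of genes on a log scale, y axis) in each comparison, with coloured lines at the 5 genes. For ProT against HSC the lines of Cd34 and Flt3 lie near the centre, at -0.06 and 0.28, with Cd93 at -0.80, Kit at 0.72 and Cd27 at 1.79 farther out, and 4 lines lie in the lower tail, from -2.95 to -4.22, for DP against ProT.

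The 5 profiles were compared by the root mean square difference between signals centred on the mean of each gene over the 6 arrays. Kit and Flt3 were the closest pair of the 10, at 0.31 log2 units, and Cd34 and Cd93 came next at 0.45. Cd27 was 2.22 to 2.91 away from the other 4. The same measure was taken against the 10900 genes with a population mean of at least 7.17, as a description over 6 arrays that share the populations. Closest to Kit was Arhgap6, which encodes a GTPase-activating protein (0.08), with 9.10 and 9.18 in ProT, 8.51 and 8.20 in HSC, and 5.86 and 5.73 in DP. Neurl3, Plscr1 and Haao followed. Closest to Flt3 were Gcnt2 and Wdfy4 (0.16 each), then Clybl and Sccpdh. Gcnt2, a glycosyltransferase, was also lower on HSC replicate 2 (8.88) than on HSC replicate 1 (9.70). Closest to Cd34 were Bex6 and Pygl, the liver-type glycogen phosphorylase (0.17 each), then Serpinb1a and Mlkl. Closest to Cd93 were Anxa1, the annexin A1 gene (0.14), then Alox5ap, Casp1 and the homeobox gene Hhex. For Cd27 the nearest was Nlrc3 at 0.05, with 10.07 and 10.10 in DP, 9.30 and 9.22 in ProT, and 7.48 and 7.27 in HSC. Galnt12, the pre-T cell receptor gene Ptcra, and the adaptor gene Nck2 followed.

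Within the kinase family of Kit and Flt3 and its ligands, 3 of 9 genes rose and 1 fell in ProT against HSC. Of all genes, 7.85% rose and 6.90% fell there. In DP against ProT 2 of the 9 rose and 3 fell, where 14.5% and 18.1% of all genes did. The list's median log2 change was -0.01 and 0.14 in these comparisons, beside -0.01 and 0.02 over all genes. These counts are small, and they moved when single arrays were left out, though the changes of the called genes kept their sign. Without either DP array 1 gene rose and 1 fell in DP against ProT, without ProT replicate 2 the rises there were 1, and without ProT replicate 1 the falls in ProT against HSC were 2. Csf1r, the receptor of macrophage colony-stimulating factor, had 6.84 and 6.30 in ProT, against 10.68 and 11.03 in HSC. It fell by 4.28 on the log2 scale (adjusted p = 9.7e-05, limma), at the step where Kit rose. Pdgfrb, a receptor of platelet-derived growth factor, had 11.71 and 11.53 in ProT, against 9.04 and 8.18 in HSC, and 8.17 and 7.85 in DP. It rose by 3.02 ± 0.28 in ProT (adjusted p = 0.00148, limma) and fell by 3.62 in DP against ProT (adjusted p = 0.000364, limma), so that it was highest in ProT, as Kit was. Its ligand gene Pdgfa rose by 1.14 ± 0.16 in ProT against HSC (adjusted p = 0.00632, limma). Pdgfa then fell by 0.89 in DP against ProT (adjusted p = 0.00758), a call lost at the same threshold in 2 alternative settings, by omission of either DP array.

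Flt3l, which encodes FLT3 ligand, had 9.53 and 9.66 in ProT, against 8.45 and 8.55 in HSC, and rose by 1.09 ± 0.08 (adjusted p = 0.000646, limma). Its change in DP against ProT was -0.28 ± 0.08 (adjusted p = 0.0477, limma), a call lost in 9 alternative settings, among them omission of either ProT array or of either DP array. Kitl, the SCF gene, stayed between 4.27 and 4.48 on all arrays, below 7.17. It passed in no comparison, and is named outside the rule for genes, after its values were seen. Csf1, the gene of macrophage colony-stimulating factor, fell by 0.94 in DP against HSC (adjusted p = 0.00727, limma), a call lost in 1 alternative setting, by omission of DP replicate 2. Il34, which encodes the other ligand of CSF1R, rose by 0.65 ± 0.08 in DP against ProT (adjusted p = 0.00177, limma). All means of Csf1 and of Il34 were below 7.17, with 5.87 and 5.66 for Csf1 in DP, against 6.61 and 6.80 in HSC, and 6.88 and 6.82 for Il34 in DP, against 6.14 and 6.26 in ProT. Pdgfra changed by 0.38 ± 0.07 in DP against ProT (adjusted p = 0.0117, limma), with all means below 7.17 and the call lost in 4 alternative settings, among them omission of ProT replicate 2 or of either DP array.

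Of the 5 CD34 and CD93 relatives, 1 rose and 1 fell in ProT against HSC (median -0.05), beside 7.85% and 6.90% of all genes. In DP against ProT 1 rose and 2 fell (median -0.09), beside 14.5% and 18.1% of all genes. The fall in ProT against HSC was lost without HSC replicate 1 or either ProT array. It was also lost in a fit of ProT and HSC alone, which omission of either DP array repeats. The number of rises there moved without HSC replicate 1, and the rise in DP against ProT was lost without DP replicate 2. Podxl, which encodes podocalyxin, a sialomucin related to CD34, had 9.37 and 9.16 in ProT, against 6.37 and 6.72 in HSC, and 6.87 and 6.82 in DP. It rose by 2.72 ± 0.14 in ProT against HSC (adjusted p = 0.00012, limma) and fell by 2.42 in DP against ProT (adjusted p = 0.000116, limma). Thbd, which encodes thrombomodulin, a relative of CD93, changed by -0.54 ± 0.11 in ProT against HSC (adjusted p = 0.0278, limma). That call was lost on omission of HSC replicate 1 or of either ProT array. A fit of ProT and HSC alone, which omission of either DP array repeats, lost it too. With single arrays left out the change of Thbd ran from -0.65 to -0.43. Thbd fell by 1.05 in DP against ProT (adjusted p = 0.00118, limma), with 5.92 and 6.08 in DP. Podxl2, the endoglycan gene, rose by 0.53 ± 0.10 in DP against ProT (adjusted p = 0.00844, limma), with all means below 7.17 and the call lost in 1 alternative setting, by omission of DP replicate 2.

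CD27 belongs to a receptor family whose members took several courses. Of 20 measured genes of its ligand, relatives and adaptors, 7 rose and 4 fell in ProT against HSC (median 0.12). In DP against ProT 6 rose and 7 fell (median -0.04), and in DP against HSC 7 rose and 4 fell (median -0.01). Over all genes the shares that rose and fell were 7.85% and 6.90%, 14.5% and 18.1%, and 16.0% and 18.8%, in that order. Without either DP array the rises were 4 in ProT against HSC and 3 in DP against ProT, and the falls in DP against HSC were 2. Without DP replicate 1 the falls in DP against ProT were 4. Tnfrsf4, the OX40 gene, had 8.57 and 8.57 in DP, 7.78 and 7.79 in ProT and 7.42 and 7.42 in HSC, the same order as Cd27. It rose by 0.79 ± 0.07 in DP against ProT (adjusted p = 0.000516, limma). Its change in ProT against HSC was 0.37 ± 0.07 (adjusted p = 0.0182, limma). The latter call was lost with a robust prior that follows signal and on omission of either ProT array. It was also lost in a fit of ProT and HSC alone, which omission of either DP array repeats. Tnfrsf9, the 4-1BB gene, had 12.95 and 12.90 in ProT, against 7.09 and 6.85 in HSC, and 9.10 and 9.09 in DP. It rose by 5.95 ± 0.10 in ProT against HSC (adjusted p = 3.48e-06) and fell by 3.83 in DP against ProT (adjusted p = 1.06e-05, both limma). Tnfrsf18, the GITR gene, likewise rose by 2.94 ± 0.09 in ProT (adjusted p = 1.76e-05) and fell by 0.89 in DP against ProT (adjusted p = 0.000799, both limma). Ltbr, the lymphotoxin beta receptor gene, fell by 1.07 in ProT against HSC (adjusted p = 0.004) and fell by 0.90 in DP against ProT (adjusted p = 0.00374, both limma). Tnfrsf1b, a TNF receptor gene, fell by 1.05 in ProT against HSC (adjusted p = 0.00539, limma). The other called relatives in the 3 comparisons were Cd40, Tnfrsf1a, Tnfrsf8, Tnfrsf13b, Tnfrsf13c and Tnfrsf14.

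Among the adaptors, Traf1 rose by 1.51 ± 0.12 in ProT against HSC (adjusted p = 0.000853, limma). Traf2, whose product binds CD27, rose by 0.91 ± 0.12 in DP against HSC (adjusted p = 0.00226, limma). Traf5, the other TRAF gene known for that binding, changed by 0.69 ± 0.13 in ProT against HSC (adjusted p = 0.0203, limma), a call lost in 3 alternative settings, by omission of HSC replicate 2 or of either ProT array. Siva1, whose product also binds CD27, changed by -0.85 ± 0.21 in DP against ProT (adjusted p = 0.0277, limma). That call was lost in 3 alternative settings, by omission of ProT replicate 1 or of either DP array. Map3k14, the NF-kappa-B inducing kinase gene, was called too. Cd70, the CD27 ligand gene, read at most 5.15 on every array and passed in no comparison. It too is named after its values were seen.

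**Figure D4:**
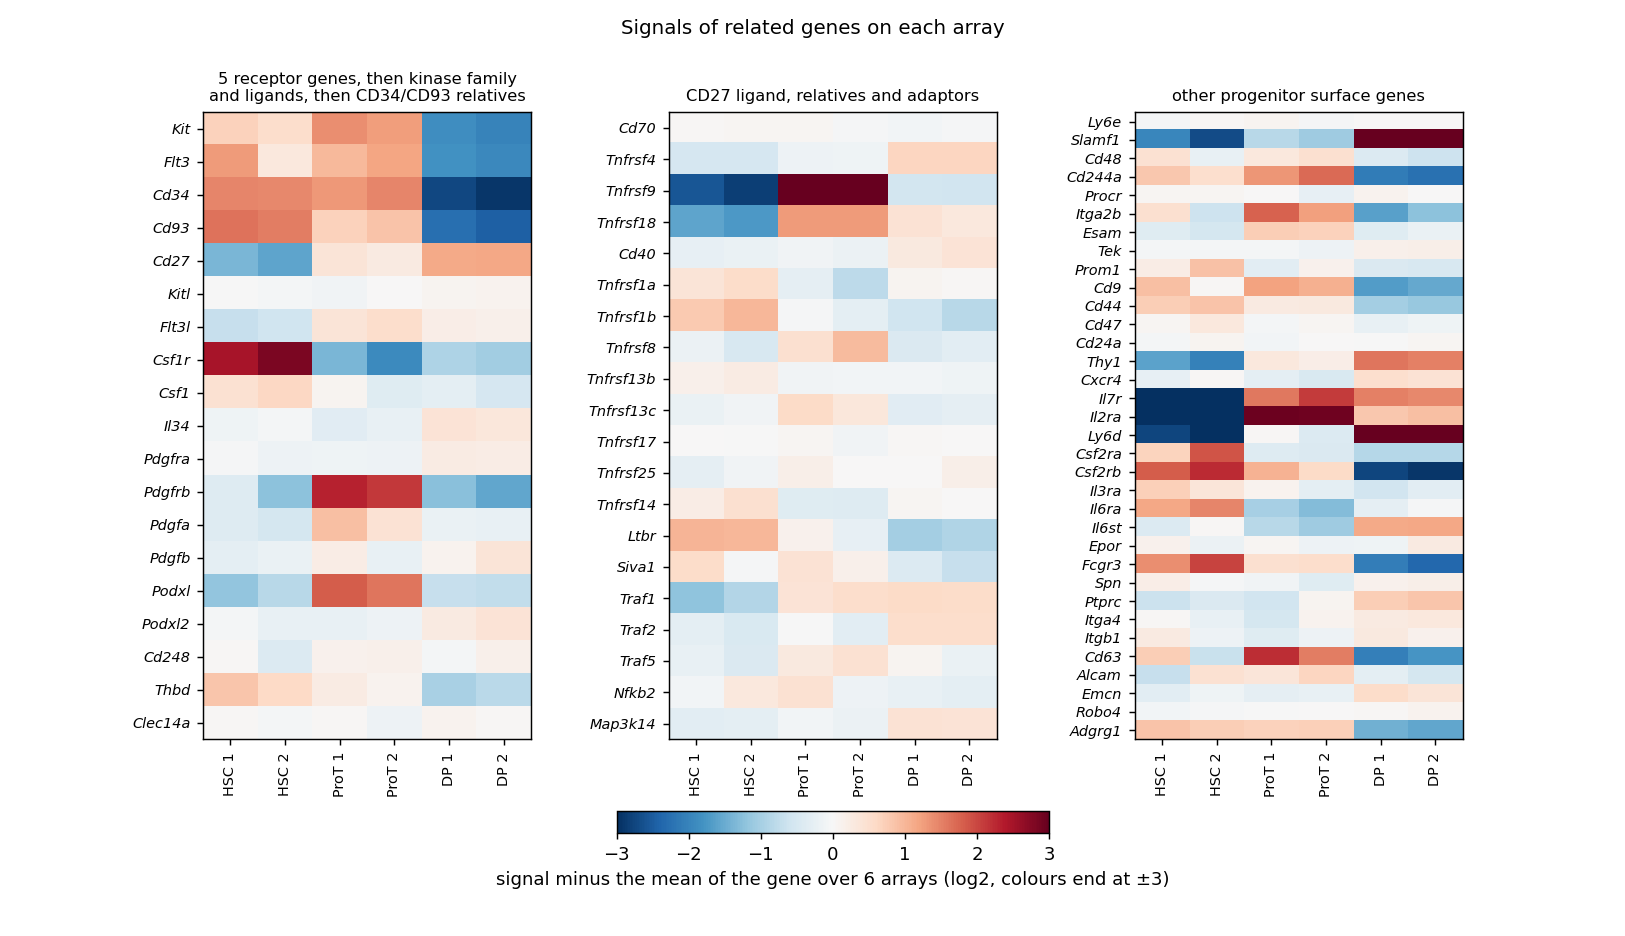
Signal minus the mean of each gene over the 6 arrays (log2, colour, ends at ±3) for the 5 receptor genes and 4 sets of related genes (rows) on each array (columns, HSC, ProT and DP). Kit, Flt3, Cd34 and Cd93 are blue only in DP, Pdgfrb, Podxl and Tnfrsf9 are reddest in ProT, and Cd27 is blue only in HSC.

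Genes that act below Kit and Flt3 changed in both directions. Of 36 measured, 9 rose and 5 fell in ProT against HSC (median 0.17), where 7.85% and 6.90% of all genes did. In DP against ProT 8 rose and 14 fell (median -0.25), where 14.5% and 18.1% of all genes did. The falls in ProT against HSC were 3 without ProT replicate 1 or either DP array. The rises in DP against ProT were 4 without DP replicate 1 and 5 without DP replicate 2, and the falls were 9 without DP replicate 2. Socs2, a feedback inhibitor of cytokine signals, rose by 4.77 ± 0.16 in ProT against HSC (adjusted p = 2.62e-05) and fell by 4.92 in DP against ProT (adjusted p = 1.57e-05, both limma). Pik3cd, a catalytic subunit of PI3 kinase, rose by 1.25 ± 0.12 in ProT against HSC (adjusted p = 0.00149, limma), and Socs3 fell by 1.21 there (adjusted p = 0.000259, limma). In DP against ProT the docking protein gene Gab2 fell by 2.96 (adjusted p = 3.69e-05, limma). The phospholipase gene Plcg2 fell by 3.62 (adjusted p = 1.42e-05) and the kinase gene Fes fell by 2.67 (adjusted p = 2.07e-05, both limma). At the same step Cbl, the gene of a ubiquitin ligase that acts on activated Kit, rose by 1.26 ± 0.10 (adjusted p = 0.000353), and Stat5b rose by 0.64 ± 0.09 (adjusted p = 0.00311, both limma).

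Of 12 transcription factor genes reported to act on Kit or Flt3, 0 rose and 6 fell in ProT against HSC (median -0.54). In DP against ProT 2 rose and 7 fell (median -0.45), and in DP against HSC 3 rose and 9 fell (median -1.64). The shares of all genes that rose and fell were 7.85% and 6.90%, 14.5% and 18.1%, and 16.0% and 18.8%, in that order. Leaving out single arrays undid the calls of these rises, other than that of Myb in DP against ProT, while each change stayed positive. In DP against HSC Myb then ran from 0.23 to 0.37, Runx1 from 0.29 to 0.52 and Pax5 from 0.23 to 0.35. In DP against ProT Myb ran from 0.55 to 0.61 and Pax5 from 0.28 to 0.40. All means of Pax5 were below 7.17. The number of rises in DP against HSC also dropped in a fit of DP and HSC alone, which omission of either ProT array repeats. In ProT against HSC that number moved without HSC replicate 1. Lmo2, which encodes a bridge of the TAL1 complex, fell by 2.42 in ProT against HSC (adjusted p = 3.77e-05, limma) while Kit rose, and fell by 2.36 in DP against ProT (adjusted p = 2.72e-05). Lyl1, which encodes a bHLH partner of LMO2, fell by 2.91 in DP against ProT (adjusted p = 1.02e-05), and Gata2 fell by 2.96 (adjusted p = 0.00211, both limma). Spi1, the PU.1 gene, fell by 3.42 at that step (adjusted p = 0.000186, limma). Its change in ProT against HSC was -1.01 ± 0.22 (adjusted p = 0.0341, limma). That call was lost with a replicate block and on omission of HSC replicate 2 or ProT replicate 2. It was also lost in a fit of ProT and HSC alone, which omission of either DP array repeats. Cebpa, which encodes a myeloid factor, fell by 3.06 in ProT against HSC (adjusted p = 8.24e-05, limma), and Myb rose by 0.58 ± 0.08 in DP against ProT (adjusted p = 0.00313, limma).

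Other surface genes of progenitors also moved both ways. Of 34 measured, 8 rose and 6 fell in ProT against HSC (median -0.03), where 7.85% and 6.90% of all genes did. In DP against ProT 9 rose and 11 fell (median -0.09), where 14.5% and 18.1% of all genes did. In DP against HSC 9 rose and 13 fell (median 0.02), where 16.0% and 18.8% did. In ProT against HSC the rises were 5 without either DP array, and the falls were 2 without ProT replicate 1 or either DP array and 3 without ProT replicate 2. In DP against HSC the falls were 7 without DP replicate 1 and 8 without DP replicate 2. In DP against ProT, where Cd34 fell, Cd244a, the 2B4 receptor gene, fell by 3.69 (adjusted p = 4.55e-05, limma) and Cd63, a tetraspanin gene, fell by 3.77 (adjusted p = 0.00199). Itga2b, an integrin gene of platelets and early progenitors, fell by 2.93 (adjusted p = 0.00246, limma). Where Cd27 rose, Slamf1 rose by 4.23 ± 0.23 (adjusted p = 0.000103), Ly6d rose by 3.37 ± 0.20 (adjusted p = 0.000141) and Thy1, the gene of a T cell surface protein, rose by 1.30 ± 0.15 (adjusted p = 0.00141, all limma). Thymic epithelial and stromal markers moved with the DP results too, as 9 of 12 rose and 1 fell in DP against ProT. Their sums were 4910 to 4939 in DP, 2259 to 2316 in ProT and 1428 to 1435 in HSC. Without Epcam they were 4745 to 4760 in DP, 1231 to 1260 in ProT and 1347 to 1349 in HSC, so ProT was then lowest. Without Ccl25 or Prss16 the order held. Foxn1, Psmb11, Krt5 and Pdgfra were below 7.17 in all 3 populations, though each had its highest mean in DP. Ccl25 had means of 7.21 in ProT and 10.84 in DP, and Prss16 7.40 and 9.99. Krt8 had 7.41 and 9.53 in these populations, and Dcn 4.90 and 7.67. Epcam went the other way, with 10.02 in ProT and 7.42 in DP. The part of host cells in the DP signals was not tested.

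**Figure D5:**
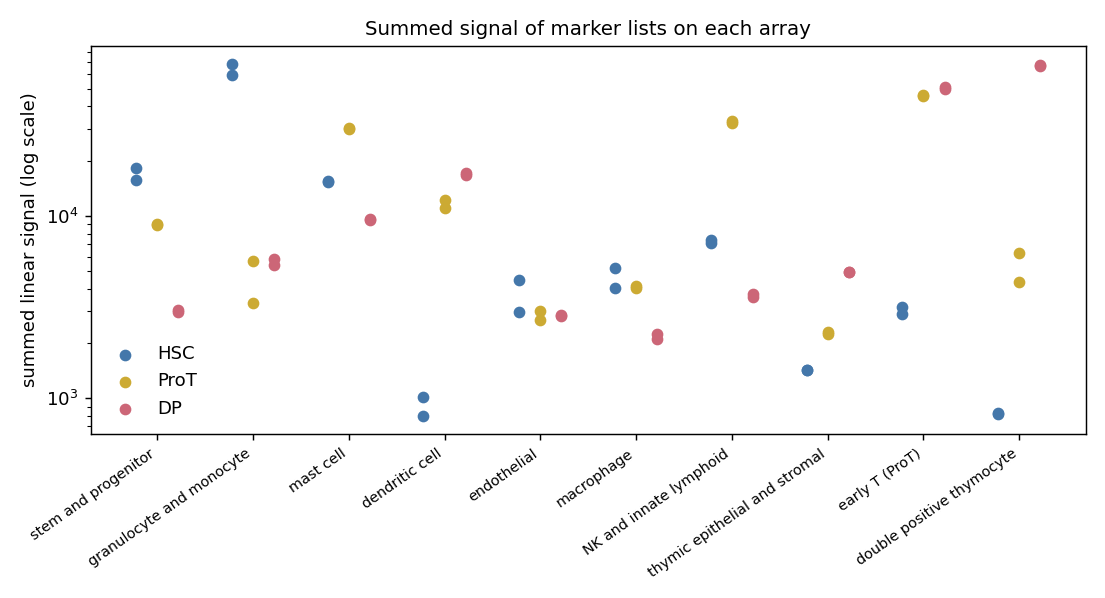
Summed linear signal (y axis, log scale) of 10 marker lists (x axis) on each array, with 2 points for each of HSC, ProT and DP. Mast cell markers peak in ProT as Kit does, at 30095 and 30628, and granulocyte and monocyte markers fall to between 3330 and 5678 in ProT, against 59427 and 68826 in HSC.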

How the data were processed

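The log2 signals the authors deposited cover 35556 probe sets on 6 arrays. Per the submitters' processing notes, RMA, which corrects background, normalizes arrays to each other and summarizes each probe set, was run with Partek. Versions and settings are not given in the sources here. Deposited values lay between 3.22 and 14.38. Detection calls were not used here, so signals below 7.17, the median of all gene values, were not shown to lie above background.

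GEO's platform annotation linked 21789 probe sets to exactly 1 gene. Where a gene had more than 1 (999 genes), the one with the highest mean was used. Another 1621 probe sets named several genes and 12146 listed none, and these were left out. Gene identifiers of 21698 probe sets were found in RefSeq, and 0 names changed.

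All 19938 genes were fitted with limma 3.58.1 in R 4.3.3 (1 mean per population, no block; eBayes prior constant over signal, with 2.83 prior and 3 residual degrees of freedom). On simulated arrays of ProT against HSC, 50 of 19938 genes were changed at each size. There 36% of genes changed by a log2 of 0.5 were called and 92% of those changed by 1, and 14 of 178 calls were false. In the data a far larger share was called (14.7%), so these figures need not carry over. Summed signals add linear values, and the sums without 1 leading gene were added after seeing the data. Named genes are the 5 receptors, the called relatives and ligands, up to 4 called members of the other lists in each direction, and the 4 genes nearest to each receptor. Some further genes of the lists were not analysed here. Members and lists were chosen with earlier results of these data known. Tables were prepared in Python 3.11.15 with pandas 2.3.3.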

Additional observations from a re-analysis of the deposited data

How the results depend on the processing

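With 17 alternative settings (a replicate block, quantile normalization, median centring, cyclic loess, a filter on dim genes, other rules for probe sets, a robust prior that follows signal, fitting the 2 compared populations alone, a threshold of 0.01, and leaving out each array), 252 of the 255 values of the 5 receptors kept their direction and their side of the threshold. The exceptions are Flt3 in ProT against HSC, at 0.77 without HSC replicate 1 and -0.20 without HSC replicate 2, and Cd34 in the same comparison, at 0.0117 without ProT replicate 1, with a range of -0.14 to 0.0117 when single arrays were left out. Kit ranged from 0.64 to 0.80 in ProT against HSC and from -3.33 to -3.14 in DP against ProT. Only quantile normalization, median centring, cyclic loess and omission of an array of a compared population could change a receptor's log2 change. Each receptor has 1 probe set, so the rules for probe sets left its signal unchanged. The remaining settings could alter only its adjusted p or its side of the threshold. The count of 252 thus says little about the direction of change. Of the calls of other genes named by the rule, 90 of 121 held under every setting other than the stricter threshold. Median centring shifted the median of all genes in DP against ProT by 0.12 and quantile normalization by -0.10.

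Of 612 counts over the gene lists, 75 moved by over 1.5 times. The counts over all genes moved as well. Leaving out 1 array gave 1013 to 1988 genes higher and 779 to 1994 lower in ProT against HSC, 1467 to 3282 and 2047 to 4126 in DP against ProT, and 1940 to 3188 and 2361 to 3862 in DP against HSC. A fit of only ProT and HSC gave 1013 higher and 779 lower, from fewer arrays, and omission of either DP array repeats that fit. At the threshold of 0.01, 891 were higher and 644 lower in ProT against HSC, 1645 and 2396 in DP against ProT, and 2060 were higher in DP against HSC. Median centring gave 4680 higher in DP against ProT; the cause was not tested.

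The deviations of same-numbered arrays correlated at 0.06 for ProT and HSC, -0.02 for DP and HSC and -0.04 for DP and ProT. These values cannot show whether same-numbered arrays shared a culture, an animal or a batch, and the labels do not say. With the replicate block, 1534 genes were higher and 1311 lower in ProT against HSC, 2722 and 3546 in DP against ProT, and 3060 and 3697 in DP against HSC, and no call of the 5 receptors changed (Kit in ProT against HSC 0.72, adjusted p = 0.0051, limma).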
